A study of Mus musculus with 9 samples.

Results

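The genes of glycolysis and pyruvate handling were followed through induction of mouse mandibular periosteal progenitors towards osteoblasts, with and without Cre-mediated deletion of Plagl1. The group was chosen by name. It holds 33 of the 21958 genes in the expression table, from glucose uptake to the gate of the mitochondrion, and all 33 had a row and passed the filter on low counts. A second, shorter row named Aldoa held 1 to 11 reads per library and was not tested.

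Glycolysis splits glucose into pyruvate in the cytoplasm and yields a small amount of ATP. Pyruvate is then either reduced to lactate by lactate dehydrogenase and exported by monocarboxylate transporters, or carried into the mitochondrion and oxidised by the pyruvate dehydrogenase complex. Pyruvate dehydrogenase kinases switch that complex off and pyruvate dehydrogenase phosphatases switch it back on. Osteoblasts are known for a high rate of aerobic glycolysis with lactate release, and HIF1 and MYC are known activators of many of the genes. Pdk4 is a textbook target of glucocorticoids and of FOXO factors.

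RNA was sequenced from cells of the membrane that covers the lower jaw bone, in 3 groups of 3 libraries. Plagl1 fl/fl cells, which carry floxed alleles of the imprinted zinc-finger gene Plagl1 and no Cre, were taken without osteogenic supplements (control day 0) and after 3 days in medium supplemented with dexamethasone at 100 nM, ascorbic acid at 50 ug/ml and b-glycerophosphate at 5 mM (control day 3). CTSK-iCre;Plagl1 fl/fl cells were taken after the same 3 days with the same supplements (mutant day 3). All groups therefore carry the floxed alleles, the day 3 groups share the glucocorticoid dexamethasone, and no uninduced mutant and no Cre-only group was included. The Ctsk promoter that drives Cre is active in osteoclasts and in some periosteal cells, and the age and sex of the animals were not stated. Whether the libraries of 1 group stem from different animals or cultures is not stated either, and the p-values may therefore reflect technical spread alone.

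The libraries held 16204327 to 19859744 counted reads. Plagl1 fell in the mutant but was not lost, with a log2 fold change of -0.84 ± 0.07 (SE, n = 3 per group) against control day 3 (edgeR quasi-likelihood test, adjusted p = 7.60e-09). 4 Y-linked genes were lower in the mutant libraries than at control day 3, by log2 fold changes from -1.63 (Kdm5d) to -1.31 (Ddx3y). Markers of more than 1 cell type were abundant. Summed periosteal and mesenchymal markers ran from 20794 to 22253 CPM (read counts per library size, after TMM scaling) at control day 0, from 27410 to 28995 at control day 3 and from 19139 to 21072 in the mutant, while 11 macrophage markers summed to 13347 to 13817, 18810 to 20720 and 19797 to 21748 CPM. Hba-a1, Hbb-bs, Epcam, Krt5 and Krt8, defining markers of erythroid and epithelial cells, were listed at 0 in all libraries. In such bulk RNA, fewer cells of a type and less RNA per cell cannot be told apart.

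By level per gene length the highest members came mostly from the later steps, and Aldoa, of an earlier step, ranked 3 among the members. Mean FPKM (reads per gene length and library total, as deposited) over the 9 libraries was 329.5 for Pkm, the pyruvate kinase gene, which ranked 99 among all genes of the table. It was followed by phosphoglycerate kinase Pgk1 at 269 FPKM, aldolase Aldoa at 231 FPKM, lactate dehydrogenase Ldha at 184 FPKM and phosphoglycerate mutase Pgam1 at 163 FPKM. The lowest members were Pfkfb2 at 1.37 FPKM, Mpc1 at 1.40 FPKM, Slc2a3 at 1.47 FPKM and Eno2 at 1.82 FPKM. Levels per length depend on the gene length in the deposited table. Gapdh, Pgk1, Ldha, Eno1, Aldoa, Pkm, Tpi1 and Pgam1 also have near-identical processed copies elsewhere in the genome, whose reads the counting could have split or dropped, so their single values are uncertain.

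**Figure D1:**
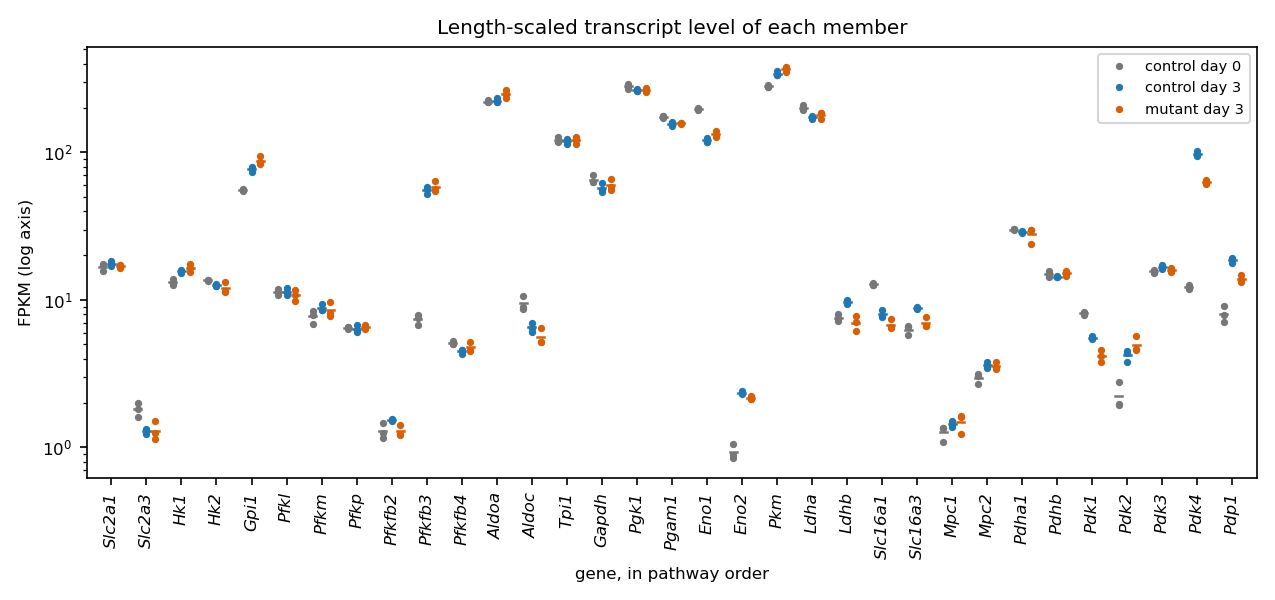
Deposited FPKM (y axis, log scale) of each of the 33 genes in pathway order, with 1 point per library, coloured by group, and a short line at each group's mean (n = 3). Pkm, Pgk1 and Aldoa stand highest, and Pdk4 and Pfkfb3 show the widest gap between control day 0 and the day 3 groups.

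Promoter windows are shown for the kinase Pdk4, for Pfkfb3 and for the lactate exporter Slc16a3, each higher at control day 3 than day 0, and for Ldha, whose RNA did not pass the test. They come from RefSeq (build GRCm38.p6) and run from 250 bases before to 50 bases after an annotated start. Each is written 5′ to 3′ on the gene's strand, in lower case, with every match to the hypoxia response core ACGTG or the E-box CACGTG on either strand in capitals.
Pdk4 chr6:5496229-5496528 (minus strand): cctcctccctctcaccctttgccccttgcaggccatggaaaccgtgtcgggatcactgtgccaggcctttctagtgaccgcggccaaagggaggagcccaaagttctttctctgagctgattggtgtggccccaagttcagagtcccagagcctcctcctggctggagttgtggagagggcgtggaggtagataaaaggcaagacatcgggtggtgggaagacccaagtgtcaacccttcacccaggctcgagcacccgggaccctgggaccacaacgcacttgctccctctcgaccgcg
Pfkfb3 first start chr2:11502041-11502340 (minus strand): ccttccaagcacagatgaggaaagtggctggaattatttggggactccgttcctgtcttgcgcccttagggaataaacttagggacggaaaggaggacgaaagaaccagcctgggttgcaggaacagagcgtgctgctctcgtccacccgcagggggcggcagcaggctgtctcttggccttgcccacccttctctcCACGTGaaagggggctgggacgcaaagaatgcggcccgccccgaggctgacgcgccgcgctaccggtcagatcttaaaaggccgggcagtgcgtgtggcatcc
Pfkfb3 second start chr2:11553880-11554179 (minus strand): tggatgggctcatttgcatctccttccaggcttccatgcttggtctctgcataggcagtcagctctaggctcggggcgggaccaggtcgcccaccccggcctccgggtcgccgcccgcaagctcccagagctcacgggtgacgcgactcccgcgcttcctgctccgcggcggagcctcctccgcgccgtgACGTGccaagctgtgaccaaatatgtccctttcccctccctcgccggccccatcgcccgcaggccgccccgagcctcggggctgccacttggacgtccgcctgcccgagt
Slc16a3 chr11:120948817-120949116 (plus strand): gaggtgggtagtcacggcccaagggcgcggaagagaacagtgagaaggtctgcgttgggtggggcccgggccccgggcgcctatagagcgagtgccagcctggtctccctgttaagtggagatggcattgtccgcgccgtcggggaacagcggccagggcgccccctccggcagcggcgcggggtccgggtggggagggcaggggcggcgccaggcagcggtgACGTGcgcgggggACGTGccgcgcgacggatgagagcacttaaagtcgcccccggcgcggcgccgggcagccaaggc
Ldha chr7:46845554-46845853 (plus strand): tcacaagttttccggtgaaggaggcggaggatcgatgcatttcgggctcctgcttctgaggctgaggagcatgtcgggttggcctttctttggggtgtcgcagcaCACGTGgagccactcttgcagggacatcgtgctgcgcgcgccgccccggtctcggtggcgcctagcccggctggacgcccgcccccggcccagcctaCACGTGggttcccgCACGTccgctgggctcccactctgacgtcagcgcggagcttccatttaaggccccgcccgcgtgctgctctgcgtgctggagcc
The Pdk4 window holds neither motif. The first Pfkfb3 window holds 1 E-box that begins 53 bases before the start, and the second holds 1 core 60 bases before it. Slc16a3 has 2 cores, at 27 and 14 bases before the start, and the Ldha window shown has 2 E-boxes, at 145 and 48 bases before it, and 1 further core. A second Ldha window in the table, chr7:46846832-46847131 on the plus strand, holds neither motif.

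Windows were found for 31 of the 33 genes (48 windows), and Slc2a3 and Pdp1 had none matched. The core was present in 18 of the 31 genes (58.1%), against 28.9% of the tested genes with a window. By window it was in 45.8%, against 24.8% of the windows of all tested genes. The E-box, a palindrome that itself holds the core on both strands, was present in 6 of the 31 genes (19.4%), against 11.5% of tested genes. By window it was in 12.5%, against 9.62%. The palindrome of the glucocorticoid receptor element, searched with free bases at its variable positions, was in 0 of the 48 windows, against 0.326% of windows of tested genes. Median GC content was close, at 61.7% against 60.7%. The core was found in each class of response. Among genes higher at control day 3 than day 0, 10 of 15 with a window held the core, as did 2 of 4 lower genes and 6 of 12 that did not pass the test. A match describes letters only and shows no binding.

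The first comparison asked what 3 days of osteogenic induction did in control cells. Pdk4 and Pfkfb3 each rose more than any other member, and the enolase Eno2, the phosphatase Pdp1 and the kinase Pdk2 rose by over 1 log2 unit, while the housekeeping steps Gapdh, Pgk1, Pgam1, Tpi1 and Ldha did not pass the test. In all, 16 members rose, 5 fell and 12 did not pass. The background was high, since 65.5% of the 13013 tested genes were called in this comparison, 33.1% as higher and 32.4% as lower, and the 21 called members are close to that overall share. The median log2 fold change was 0.14 over the members and 0.01 over all tested genes. By a call of at least 1.5-fold, 7 members were higher (17.9% of tested genes) and 0 lower (14.2% of tested genes, 32.1% in either direction). Scaling by library totals alone lowers the median of all genes by 0.12 on the log2 scale and gives 11 members higher and 9 lower, and all tested genes then split into 38.7% higher among the called, against 50.5%.

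At the gate to mitochondrial oxidation, Pdk4, which phosphorylates and shuts off pyruvate dehydrogenase, was at 41.9, 39.7 and 39.4 CPM at control day 0 and at 343, 346 and 367 CPM at control day 3. Every day 3 library lay far above every day 0 library. The fold was 8.72, a log2 fold change of 3.12 ± 0.06 (SE), with an adjusted p of 1.44e-21 in edgeR's quasi-likelihood test. The gene lies at chromosome 6, 5483351 to 5496309 on the minus strand (GRCm39, from the deposited table). Pdk2, a second kinase of the family, stood at 5.89, 8.35 and 5.74 CPM on day 0 and 14.2, 14.5 and 12.3 CPM on day 3 (log2 fold change 1.04 ± 0.14, edgeR adjusted p = 8.28e-07). Its groups did not overlap.

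The other members of this step moved less than Pdk4 or the other way. Pdk1, the kinase isoform known as a HIF1 target, was at 57.4, 60.2 and 60.9 CPM before induction and 43.1, 45.0 and 44.3 CPM after it, and fell by 0.43 ± 0.07 on the log2 scale (edgeR adjusted p = 7.61e-06). X-linked Pdk3 stood at 38.2, 38.1 and 36.7 CPM and then at 45.4, 43.0 and 42.2 CPM, a rise of 0.21 ± 0.06 (edgeR adjusted p = 0.00707) that library totals alone do not call. Pdp1, the phosphatase that reactivates the complex and so opposes the kinases, rose together with Pdk4. It went from 30.2, 33.8 and 38.6 CPM to 82.5, 87.5 and 88.8 CPM (log2 fold change 1.34 ± 0.08, edgeR adjusted p = 6.23e-13). The catalytic subunit genes themselves, did not pass the test. X-linked Pdha1 was at 104, 106 and 106 CPM and then at 112, 109.7 and 109 CPM (0.07 ± 0.07), and Pdhb had a log2 fold change of 0.06 ± 0.06.

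The makeup of the kinase family changed with these shifts. Of the summed FPKM of Pdk1, Pdk2, Pdk3 and Pdk4, Pdk4 held 31.9% ± 1.1 (SD, n = 3) at control day 0 and 78.8% ± 1.1 at control day 3. Pdk3 went from 40.9% ± 0.37 to 13.4% ± 0.76 and Pdk1 from 21.3% ± 0.90 to 4.46% ± 0.13, while the summed level of the family went from 38.2 to 124 FPKM. Per gene length the leading kinase was thus Pdk3 in the day 0 libraries and Pdk4 in the induced ones. By reads not divided by length, Pdk1 led on day 0 with 41.3%, ahead of Pdk4 at 28.0% and Pdk3 at 26.1%, and Pdk4 led on day 3 with 77.6%. With 3 libraries against 3, a two-sided exact permutation test of such a share cannot go below 0.10, so these shares are given as values.

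**Figure D2:**
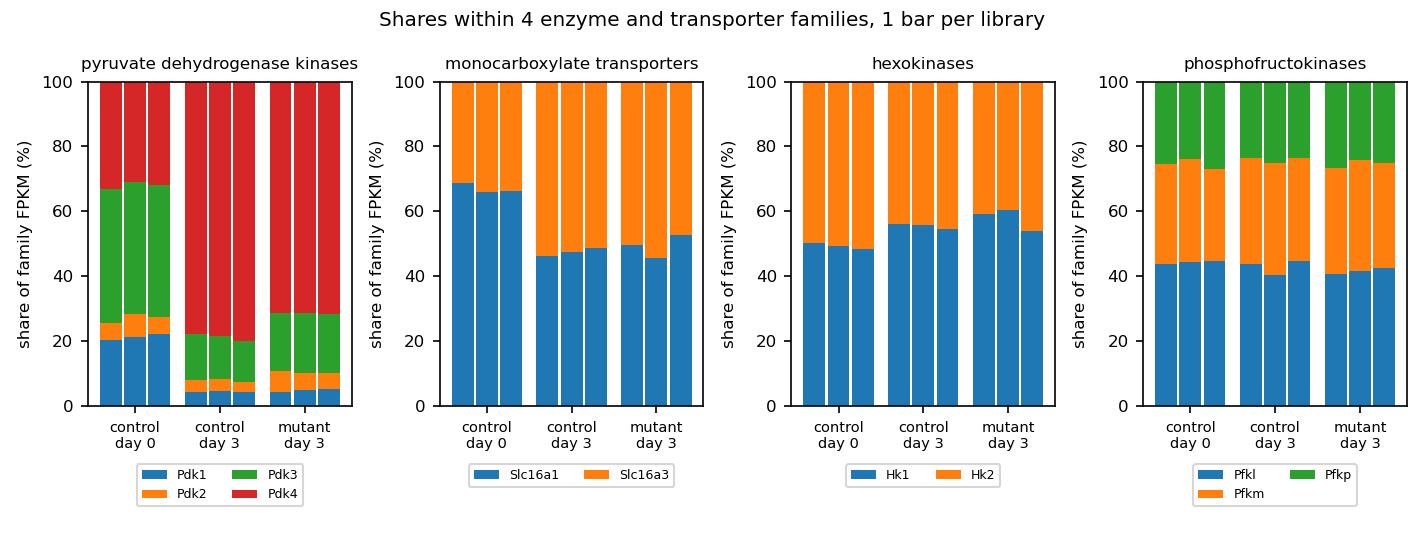
Share of each member in the summed FPKM of its family's listed members (percent, y axis) in 4 families. Each of the 9 libraries has 1 stacked bar, ordered by group. Family genes outside the list, such as Hk3 and Slc16a7, are not in the sums. On average Pdk4 goes from 31.9% of the kinase family at control day 0 to 78.8% at control day 3 and 71.4% in the mutant. Slc16a3 goes from 33.1% to 52.5% and 50.7% of the 2 listed lactate transporters.

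At the commitment step, Pfkfb3 makes fructose-2,6-bisphosphate, the strongest activator of phosphofructokinase. It was at 55.7, 53.8 and 48.2 CPM on day 0 and at 406, 436 and 451 CPM on day 3 in control cells. The groups were far apart, with a log2 fold change of 3.03 ± 0.07 and an adjusted p of 6.91e-20 (edgeR quasi-likelihood test). The gene lies at chromosome 2, 11476244 to 11558888 on the minus strand (GRCm39). Its relative Pfkfb2 rose by 0.35 ± 0.11 (edgeR adjusted p = 0.0113), a call lost without control day 0 replicate 3 and with library totals alone, and Pfkfb4 had a log2 fold change of -0.06. Of the phosphofructokinases that respond to this activator, Pfkm had a rise of 0.30 ± 0.09 (edgeR adjusted p = 0.00662), lost under the same settings, and Pfkl and Pfkp at 0.13 and 0.10 did not pass. Their shares of the summed phosphofructokinase FPKM were 42.9%, 33.1% and 24.0% for Pfkl, Pfkm and Pfkp at control day 3, against 44.2%, 30.4% and 25.4% on day 0.

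Uptake and the first steps moved modestly. The glucose transporter Slc2a1 (GLUT1), which held 93.2% of the summed FPKM of both transporters at control day 3, rose by 0.19 ± 0.06 (edgeR adjusted p = 0.0107), but not without control day 0 replicate 3, without control day 3 replicate 1 or with library totals alone. Slc2a3 (GLUT3) fell by 0.37 ± 0.12 (edgeR adjusted p = 0.00876), a call that also rests on control day 0 replicate 3. Hexokinase traps glucose as its phosphate. Hk1 rose by 0.37 ± 0.06 (edgeR adjusted p = 8.00e-06), from 106 ± 4.6 to 137 ± 3.1 CPM (mean ± SD, n = 3), while Hk2 stood at 76.1 ± 0.41 and 76.7 ± 0.92 CPM, so that Hk1 held 49.3% ± 1.0 of their summed FPKM on day 0 and 55.5% ± 0.86 on day 3. Phosphoglucose isomerase Gpi1, which converts that phosphate to the fructose form, was at 333, 346 and 337 CPM on day 0 and 528, 521 and 488 CPM on day 3. It rose by 0.60 ± 0.06 (edgeR adjusted p = 3.71e-09) with no overlap between groups.

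In the later steps of the pathway the abundant genes split. Pkm, whose product makes pyruvate, was at 1354, 1304 and 1293 CPM on day 0 and 1817, 1699 and 1699.6 CPM on day 3, a rise of 0.40 ± 0.05 on the log2 scale (edgeR adjusted p = 5.53e-07). Eno1, the main enolase, went the other way, from 993, 982 and 1002 CPM to 695, 652 and 647 CPM. It fell by 0.58 ± 0.05 (edgeR adjusted p = 1.67e-09), and the values of its retrogene Eno1b, with a log2 fold change of -0.53, moved alongside. Eno2, best known as the neuronal enolase, was at 3.75, 3.95 and 4.69 CPM and then at 11.6, 11.1 and 11.3 CPM (log2 fold change 1.46 ± 0.12, edgeR adjusted p = 7.48e-10). Even so it made up only 1.92% of the summed FPKM of Eno1 and Eno2 at control day 3, against 0.473% on day 0. That sum leaves out Eno1b and other enolase genes.

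Aldolase Aldoa, at 598, 602 and 618 CPM and then 695, 658 and 654 CPM, had a small rise of 0.14 ± 0.05 (edgeR adjusted p = 0.0230). That call was lost with upper-quartile scaling, with library totals alone and without control day 0 replicate 1, control day 0 replicate 2 or control day 3 replicate 1. Aldoc fell by 0.42 ± 0.10 (edgeR adjusted p = 0.00075). The remaining enzymes overlapped between the groups or missed the threshold. X-linked Pgk1 was at 566, 591 and 616 CPM on day 0 and 601, 620.2 and 597 CPM on day 3, and Pgam1 was at 316, 331 and 331 and then at 327, 321 and 304 CPM. Log2 fold changes were 0.04 for Pgk1, -0.04 for Pgam1, 0.09 for Tpi1 and -0.06 for Gapdh, each with an SE of 0.05 to 0.07 and none past the edgeR test. With library totals alone, Gapdh, Pgam1 and Ldha were called lower.

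At the exit of the pathway, the transporter pair moved in opposite directions. Slc16a3 (MCT4), the exporter typical of glycolytic cells, was at 28.7, 32.7 and 33.1 CPM and then at 48.1, 47.1 and 48.8 CPM, a rise of 0.61 ± 0.07 (edgeR adjusted p = 2.71e-07). Slc16a1 (MCT1), which moves lactate in either direction, was at 52.2, 52.9 and 53.8 CPM and then at 34.5, 35.4 and 38.7 CPM, and fell by 0.55 ± 0.07 (edgeR adjusted p = 3.76e-07). Neither pair of groups overlapped. Slc16a3 thereby went from 33.1% ± 1.5 to 52.5% ± 1.3 of their summed FPKM. Ldha, which favours lactate formation, was at 604, 618 and 654 CPM on day 0 and 599, 572 and 583 CPM on day 3 and did not pass (log2 fold change -0.10 ± 0.05, edgeR adjusted p = 0.111). Ldhb, whose subunit favours the reverse reaction, rose from 10.6, 11.1 and 11.8 to 16.01, 15.1 and 15.8 CPM (log2 fold change 0.49 ± 0.10, edgeR adjusted p = 0.000294). Ldhb made up 3.63% of the summed FPKM of Ldha and Ldhb on day 0 and 5.35% on day 3. Of the mitochondrial pyruvate carrier, Mpc2 rose by 0.41 ± 0.08 (edgeR adjusted p = 0.000172) and Mpc1, at 2.14 to 3.21 CPM in these libraries, had a change of 0.31 ± 0.20 that did not pass.

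**Figure D3:**
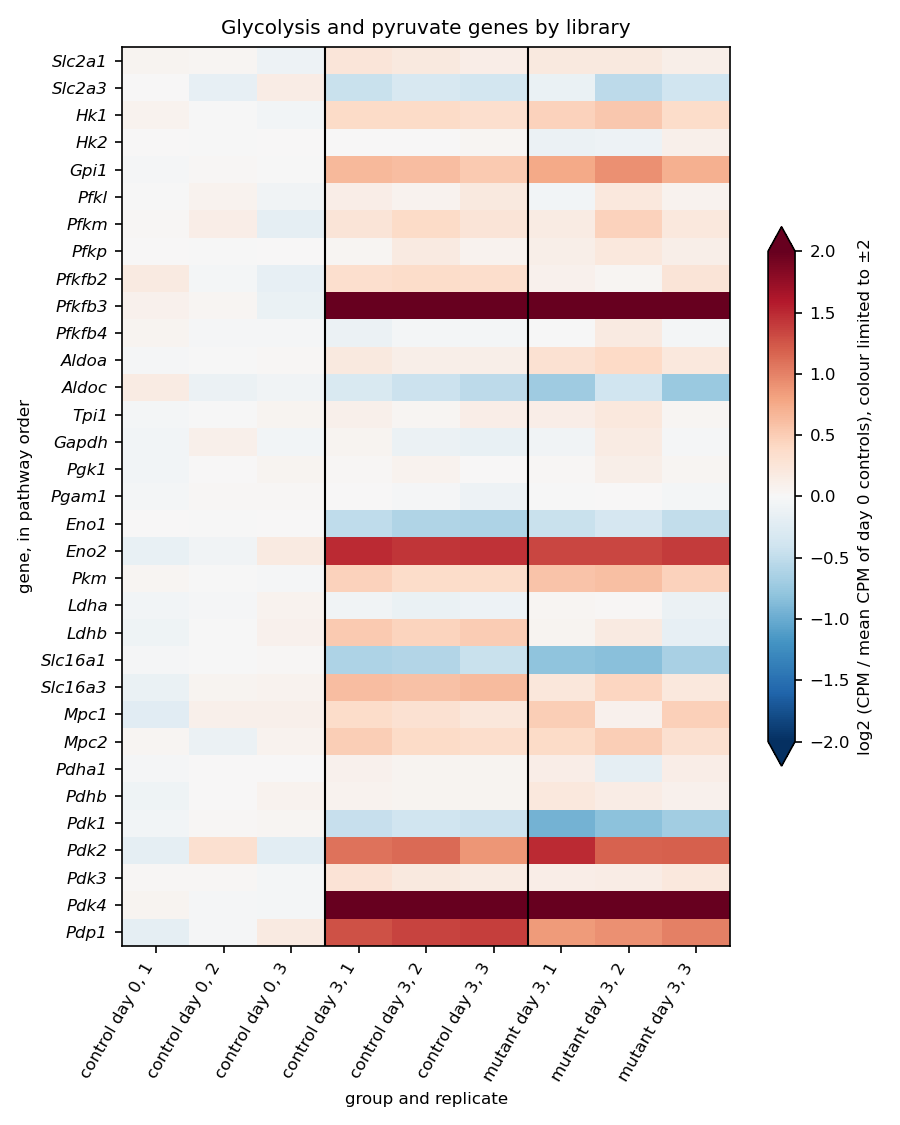
Log2 level of each of the 33 genes (rows, in pathway order) in each of the 9 libraries (columns, by group), relative to the mean of the control day 0 libraries. The colour scale saturates at 2 log2 units, so Pdk4 and Pfkfb3, above 2 in all day 3 libraries, share the darkest colour there.

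The summed level of all members, by library total, was 6765 ± 57 CPM at control day 0, 7309 ± 121 CPM at control day 3 and 7540 ± 244 CPM in the mutant (mean ± SD, n = 3), so the pathway took 0.677%, 0.731% and 0.754% of counted reads. Control day 3 libraries lay above all control day 0 libraries, and the day 3 groups overlapped. Without Pkm, the most abundant member by reads, the sums were 5366, 5611 and 5693 CPM.

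Other measures moved alongside in this comparison, in which 65.5% of all tested genes were called. Summed cell-cycle markers ran from 1463 to 1491 CPM at control day 0 and from 402 to 448 CPM at control day 3, and 7 of 7 were lower. Of 11 macrophage markers, led by Lyz2, 8 were higher and 3 lower. Of 5 tested osteoblast markers, 4 were higher and 0 lower. The summed adipocyte markers ran from 29.3 to 35.0 CPM and then from 166 to 180.5 CPM, with the fat hormone gene Lep at 0. Nearly all of that sum was Fabp4, at 31.5 and 171 CPM on average, and Adipoq was at 0.105 and 2.89 CPM. The part of these shifts in the members' values was not tested.

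The second comparison asked how the Plagl1 mutant differed from control cells after the same 3 days. Pdk4, Pdp1, Pdk1, the lactate transporters Slc16a3 and Slc16a1, and Ldhb were lower in the mutant, while 3 enzymes of the main route, Gpi1, Aldoa and Eno1, were slightly higher. That makes 3 higher, 6 lower and 24 that did not pass, against 7.95% of the tested genes higher and 9.74% lower (17.7% in either direction). The median log2 fold change was 0.03 over the members and 0.00 over all tested genes. By at least 1.5-fold, 1 member (Pdk4) was lower (3.67% of tested genes) and 0 were higher (1.24% of tested genes, 4.9% in either direction). Library totals alone gave 1 higher and 6 lower, and among all called genes 36.5% were then higher against 44.9%. RLE scaling, DESeq2 and limma-voom each gave 4 higher and 5 lower.

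**Figure D4:**
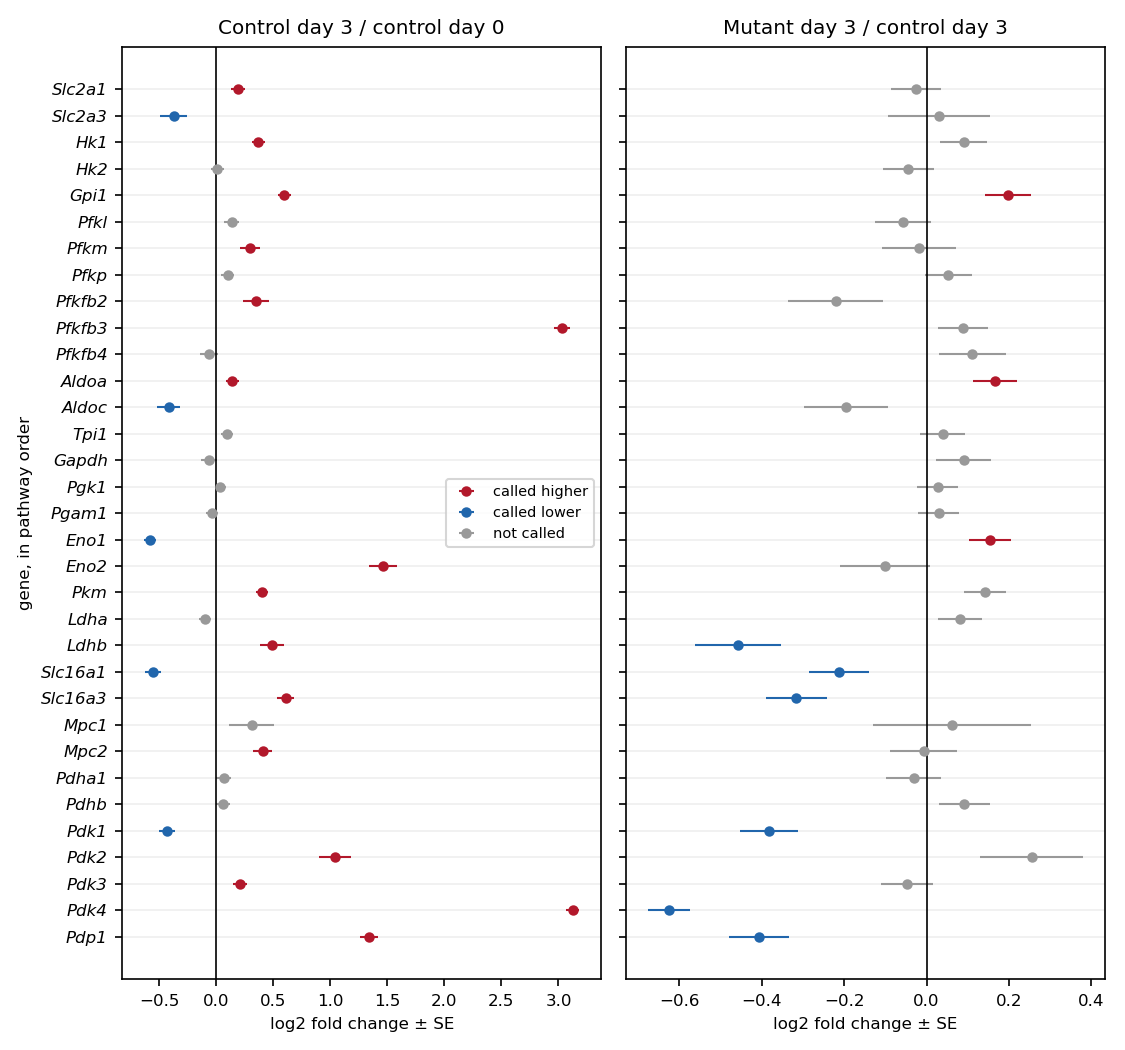
Log2 fold change of each of the 33 genes (rows, in pathway order) with 1 SE error bars, in control day 3 against control day 0 (left) and mutant day 3 against control day 3 (right). Red points were called higher and blue points lower at an adjusted p below 0.05, and grey points were not called. The panels have different x scales. Pdk4 and Pfkfb3 lie near 3 on the left, and Pdk4 at -0.63 lies lowest on the right.

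Pdk4 stood at 227, 222 and 234 CPM in the mutant, below the 343 to 367 CPM of control day 3 and above the 39.4 to 41.9 CPM of control day 0. Its log2 fold change against control day 3 was -0.63 ± 0.05 (edgeR adjusted p = 6.92e-09), a ratio of 0.648, and it was lower in 3 of 3 mutant libraries. Its antagonist Pdp1 was lower as well, at 62.0, 64.2 and 69.0 CPM, with a log2 fold change of -0.41 ± 0.07 (edgeR adjusted p = 0.000311). Pdk1, at 30.8, 33.8 and 36.9 CPM, had a log2 fold change of -0.38 ± 0.07 (edgeR adjusted p = 0.000487) and continued the direction of its fall on induction. None of the 3 genes overlapped between the day 3 groups. The calls of Pdk4, Pdp1, Pdk1, Ldhb and Slc16a3 held in every alternative fit, with the highest adjusted p at 0.0332 for Slc16a3 and 4.82e-07 for Pdk4.

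The remaining genes of this step did not pass. Pdk2 was at 18.8, 15.0 and 15.3 CPM (0.26 ± 0.12, edgeR adjusted p = 0.167), and the X-linked pair Pdk3 at 41.2, 41.6 and 43.6 CPM and Pdha1 at 115, 93.4 and 115 CPM had log2 fold changes of -0.05 and -0.03. Pdk4 made up 71.4% ± 0.081 of the kinase family's FPKM in the mutant and Pdk3 18.1% ± 0.32, and the family summed to 87.5 FPKM against 124 FPKM at control day 3. Pdk4 thus stayed the leading kinase in all day 3 libraries of both genotypes.

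Lactate handling was lower in part. Slc16a3 was at 36.8, 42.4 and 36.4 CPM in the mutant (log2 fold change -0.32 ± 0.07, edgeR adjusted p = 0.00428), with no overlap with the 47.1 to 48.8 CPM of control day 3. Ldhb was at 11.6, 12.7 and 9.95 CPM (log2 fold change -0.46 ± 0.10, edgeR adjusted p = 0.00356). These values lay below the control day 3 libraries and overlapped the 10.6 to 11.8 CPM of control day 0. Slc16a1, at 30.2, 29.6 and 33.8 CPM, was called lower by 0.21 ± 0.07 on the log2 scale (edgeR adjusted p = 0.0466), but 12 of 18 alternative fits lost that call, RLE and upper-quartile scaling, DESeq2 and limma-voom among them. Ldha stood at 639.8, 637 and 578 CPM (0.08 ± 0.05) and did not pass.

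Along the main route the shifts were small. Gpi1 was at 574, 636 and 553 CPM in the mutant, a log2 fold change of 0.20 ± 0.06 (edgeR adjusted p = 0.0155) that was lost without control day 3 replicate 3 or mutant replicate 2. Eno1 at 726, 784 and 708 CPM (0.15 ± 0.05, edgeR adjusted p = 0.0426) and Aldoa at 752, 800.2 and 700.0 CPM (0.17 ± 0.05, edgeR adjusted p = 0.0345) were lost with library totals alone, in a fit of the day 3 groups alone and without any of several single libraries, mutant replicate 2 included. Mutant replicate 2 was the highest of the mutant libraries for 18 of the 33 members. Pkm, at 1956, 1989 and 1811 CPM, just missed the threshold (0.14 ± 0.05, edgeR adjusted p = 0.0608) and overlapped control day 3. Pkm was called higher with RLE scaling, DESeq2 and limma-voom, and without control day 3 replicate 1 or mutant replicate 3. Pgk1, at 603, 640.0 and 609.9 CPM, and Pgam1, at 325, 329 and 317 CPM, had log2 fold changes of 0.03. Pfkfb3, so strongly higher after induction, was at 431, 445 and 498 CPM (0.09 ± 0.06, edgeR adjusted p = 0.357) and overlapped control day 3. Eno2 was at 10.4, 10.4 and 10.9 CPM (-0.10 ± 0.11).

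**Figure D5:**
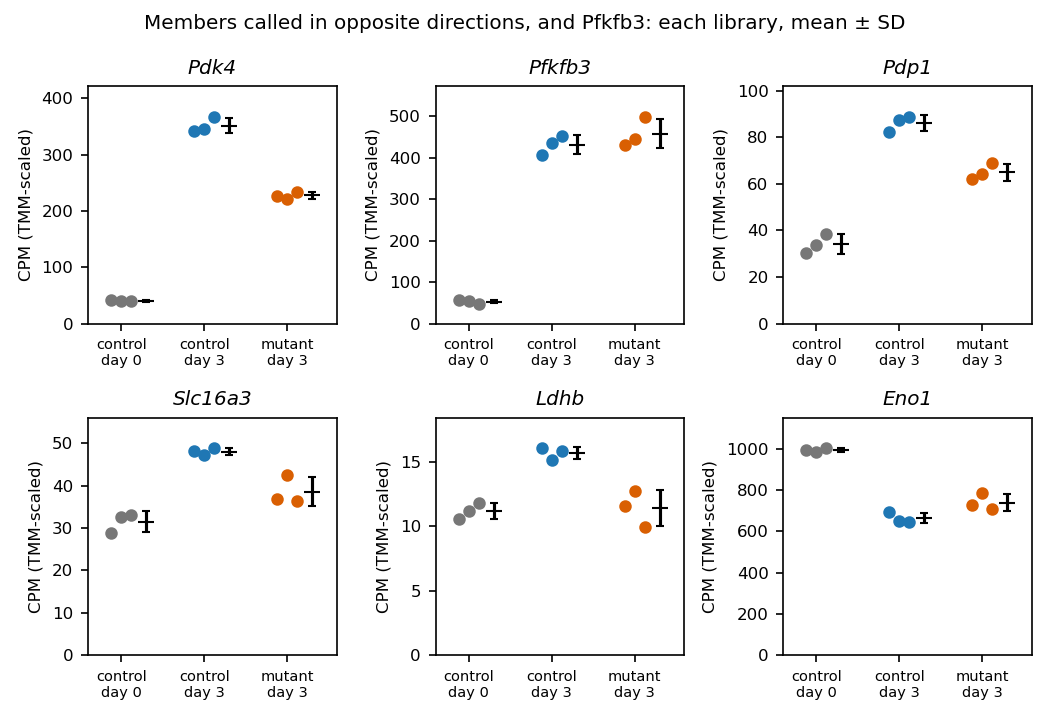
CPM (TMM-scaled, y axes from 0) in each of the 9 libraries for 6 genes, with 1 point per library and, beside them, the group mean with a 1 SD error bar (n = 3). Pdk4, Pdp1, Slc16a3 and Ldhb rise on induction and lie lower in the mutant, Eno1 does the reverse, and Pfkfb3 overlaps between the day 3 groups.

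Of the 9 members called in the mutant, 4 had risen on induction and were lower in the mutant (Ldhb, Pdk4, Pdp1 and Slc16a3) and 1 had fallen and was higher (Eno1). Aldoa and Gpi1 were higher in both comparisons, and Pdk1 and Slc16a1 lower in both. The comparisons share the control day 3 libraries, so these pairings are values side by side and no independent sign of a relation. Against control day 0, the mutant had 17 members higher and 5 lower, against 33.7% and 34.7% of tested genes (68.3% in either direction). By at least 1.5-fold 9 members were called there, against 35.3% of tested genes. Pdk4 was still 5.65-fold and Pfkfb3 8.70-fold higher than at control day 0. Ldhb, at 0.03 ± 0.11, and Ldha, at -0.02 ± 0.05, did not differ from control day 0 by the test.

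Markers of other cells also differed between the day 3 groups, where 17.7% of all tested genes were called. Of 10 periosteal and mesenchymal markers 1 was higher and 6 lower in the mutant, and of 5 osteoblast markers 5 were lower. Of 11 macrophage markers 6 were higher and 0 lower. The summed osteoclast markers ran from 97.2 to 104.7 CPM at control day 3 and from 123 to 125 CPM in the mutant. Nearly all of that sum was Acp5, at 94.1 and 118.6 CPM on average, and 1 of 3 tested markers was called. The endothelial markers ran from 5.59 to 5.93 and from 9.07 to 9.59 CPM. Adipocyte markers ran from 166 to 180.5 and from 222 to 264 CPM, again nearly all Fabp4, at 171 and 236 CPM on average. Skeletal muscle markers ran from 37.9 to 45.3 and from 54.9 to 64.5 CPM, with Tnnc2 at 0. Cell-cycle markers ran from 402 to 448 and from 474 to 512 CPM. The part of these differences, and of the Y-linked difference between the day 3 groups, in the members' values was not tested.

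Genes of the neighbouring pathways give the setting. Over all tested genes, 65.5% were called on induction and 17.7% in the mutant against control day 3. The percentages called in each list below stand beside these shares. Of 23 tested further genes of glycolysis and pyruvate metabolism, 4 rose and 4 fell on induction (34.8%). The transporter gene Slc2a6 rose by 1.04 ± 0.12, Gpd1, which draws glycolytic carbon towards glycerol, by 1.56 ± 0.36, and Bsg, the chaperone of lactate transporters, by 0.36 ± 0.06, while the monocarboxylate transporter Slc16a7 fell by 0.72 ± 0.08. In the mutant 2 were higher and 0 lower (8.70%), namely Hk3, at 0.27 ± 0.06, and Dlat, a core subunit of pyruvate dehydrogenase, at 0.18 ± 0.05. Hk3, a hexokinase of myeloid cells, was at 122 ± 3.4 CPM on control day 0, 133 ± 5.5 CPM on control day 3 and 159.9 ± 8.4 CPM in the mutant. The hexokinase shares above hold Hk1 and Hk2 only and leave Hk3 out.

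Of 18 genes of the tricarboxylic acid cycle, 7 rose and 4 fell on induction (61.1%). In the mutant 6 were higher and 0 lower (33.3%), with a median log2 fold change of 0.15 against 0.00 over all genes. Idh2 was at 105 ± 1.8 CPM on control day 3 and 130.0 ± 3.8 CPM in the mutant (0.31 ± 0.05, edgeR adjusted p = 0.000153), and Sdhd at 0.20 was also higher. In the pentose phosphate pathway, which branches off at glucose-6-phosphate, 3 of 7 genes rose and 2 fell on induction (71.4%), and 2 were higher in the mutant (28.6%). Its entry enzyme G6pdx rose by 0.23 ± 0.05 and was again higher in the mutant by 0.24 ± 0.05.

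Of 12 tested genes of gluconeogenesis and glycogen, 5 rose and 1 fell on induction (50%), and 2 were higher and 1 lower in the mutant (25%). The glycogen branching enzyme Gbe1 rose by 0.79 ± 0.07 and pyruvate carboxylase Pcx by 0.77 ± 0.09, and mitochondrial Pck2 fell by 0.87 ± 0.06. Pck2 was lower again in the mutant, at -0.39 ± 0.06. The 2 higher genes were Pygl and Gbe1. Pygl was at 86.0 ± 2.0 CPM on control day 3 and 102.7 ± 3.9 CPM in the mutant (mean ± SD, n = 3), and Gbe1 at 65.0 ± 4.4 and 74.5 ± 6.2 CPM.

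Among 16 hypoxia-responsive genes outside glycolysis, 8 rose and 4 fell on induction (75%), with a median log2 fold change of 0.48. Epas1, which encodes HIF2 alpha, rose by 4.18 ± 0.07, and Ddit4, which is also a glucocorticoid target, by 1.98 ± 0.08. Vegfa, the angiogenic factor, fell by 1.61 ± 0.06 over the same time. In the mutant 37.5% were called. Adm, the vasodilator adrenomedullin, was the 1 higher gene, at 0.89 ± 0.06. The 5 lower genes included Vegfa at -0.58 ± 0.07 and Hif1a at -0.22 ± 0.06. Of 12 tested regulators, 9 rose and 3 fell on induction (100%). The glucocorticoid-induced factor Klf15 rose by 3.88 ± 0.15, Mlxip by 1.09 ± 0.06 and Foxo3 by 0.79 ± 0.06. Myc fell by 0.93 ± 0.06, and Trp53 had a log2 fold change of -0.80 ± 0.06. Foxo3 was named by its rank in the mutant comparison, where it did not pass. Klf15 was the 1 regulator (8.33%) that passed in the mutant, higher by 0.50 ± 0.09 (edgeR adjusted p = 0.000645).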

How the data were processed

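RNA sequencing of 9 libraries in 3 groups of 3 was used, grouped by genotype and induction as labelled. HISAT2, HTSeq, cutadapt and the build GRCm39 are named in the submitters' processing notes, without versions, and the annotation and strand setting of the counting are not stated there. As deposited by the authors, the table has raw counts per gene, not normalized. It also holds FPKM, deposited beside them, which equalled count over gene length and library total within 0.1% for every gene with at least 30 reads. FPKM was used to compare levels between genes, for shares within gene families and for summed family levels, and in no test.

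Of 21958 genes, 13013 passed edgeR's filterByExpr (minimum count 10, by group). With TMM factors of 0.960 to 1.07, edgeR 4.0.16 under R 4.3.3 fitted 1 quasi-likelihood model to all 9 libraries. Benjamini-Hochberg adjusted p-values over all tested genes were called below 0.05, and SE is the log2 fold change over the root of F. Alternatives included DESeq2 1.42.0 and limma-voom (limma 3.58.1). A floor of 3 counts is 0.151 to 0.185 CPM, which covers counting error only. The test was checked on simulated counts of independent libraries in which few genes were changed. That check covers neither libraries that share an animal or culture nor changes as broad as those on induction.

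The members, the gene and marker lists and the tests were chosen with earlier results of these data known. Values in every library are given for the 8 largest called changes in each of the first 2 comparisons, for members called in opposite directions, for the 5 with the highest FPKM and for X-linked members; up to 4 genes of each other list were named by smallest p, and 1 gene that this rule names is not reported here. Eno1b was added after its values were seen.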

Additional observations from a re-analysis of the deposited data

How the results depend on the processing

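Members called in control day 3 against control day 0 numbered 17 to 22 without single libraries, and 9 were lower rather than 5 with library totals alone. Requiring at least 1.5-fold left 7 called, 7 higher and 0 lower. In mutant day 3 against control day 3, leaving out single libraries gave 5 to 10 called, 0 to 4 higher and 5 to 6 lower; 0 were higher without control day 3 replicate 3 or mutant replicate 2. Only 1 was higher with library totals alone, with the replicate block and in a fit of those 2 groups only, and at least 1.5-fold left 1 called, 0 higher and 1 lower. In mutant day 3 against control day 0, 18 to 22 were called without single libraries, library totals alone gave 10 higher and 8 lower, and at least 1.5-fold left 9 called, 6 higher and 3 lower. Tpi1 reversed there from 0.13 to -0.010 with library totals alone and passed no test under that scaling; the cause was not tested. Same-numbered libraries did not deviate together (correlations -0.077 to 0.028), and 1 of 9 libraries matched best with its own number. The main fit did not pair libraries by number. Low correlations cannot exclude that same-numbered libraries share an animal or culture. Summed member levels in CPM by library total, at control day 0, control day 3 and mutant day 3, became 6367, 7486 and 7832 with TMM scaling; by library total without Pkm they were 5366, 5611 and 5693. Mpc1 had the fewest reads of the tested members, and its SE of 0.20 in control day 3 against control day 0 limits what could be detected. Over all alternatives, 574 single-gene values stayed on their side of the threshold, 6 gained and 14 lost a call in control day 3 against control day 0; in mutant day 3 against control day 3 these were 558, 6 and 30, and in mutant day 3 against control day 0 they were 555, 5 and 33.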
